A study of Mus musculus with 4 samples.

Results

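The genes described here are 10 receptors for extracellular nucleotides and adenosine, taken by gene symbol from a table of 52636 genes counted in cells sorted from the mouse dentate gyrus. They are P2ry1, P2ry2, P2ry6, P2ry12, P2ry14, P2rx4, P2rx7, Adora1, Adora2a and Adora2b, and each symbol had 1 row. The family was chosen by the counts of P2ry2 in these same libraries, which stood out between the genotypes. The genotype differences of the receptors are therefore given as a description without a test. In P2ry2 the knockout libraries held nearly all of the counts, and Adora1 was by far the most abundant receptor per unit of transcript length.

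The libraries came from C57BL/6 mice aged 6 to 7 weeks, 2 from Fmr1-/y mice (the knockout) and 2 from their wild type littermates. The product of Fmr1, FMRP, binds mRNAs and controls their translation, and its silencing in humans causes fragile X syndrome. The series design describes sorted cells with the Dcx-DsRed reporter in both genotypes, in which a red fluorescent protein is driven with doublecortin, a protein of newborn neurons. The protocol text also mentions a sort of all living cells, with 10000 cells per sample, and the labels name neither the knockout allele nor whether each library is 1 animal. Fmr1 had 431 and 636 counts in wild type replicates 1 and 2 and 254 and 183 in knockout replicates 1 and 2.

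ATP leaves cells through channels, vesicles and damage, and ectonucleotidases on the cell surface trim it stepwise to ADP, AMP and adenosine. P2X receptors are cation channels opened by ATP, P2Y receptors are G protein-coupled receptors for ATP, ADP, UTP, UDP or UDP-sugars, and the adenosine receptors respond to the end product. In the brain these receptors are known from synaptic modulation by adenosine, from the movement of microglial processes towards released nucleotides, and from calcium signals in astrocytes and neural progenitors.

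Several of the genes lie side by side in the genome (GRCm38, GENCODE M21). P2ry2 spans chromosome 7 from 100996568 to 101012866 on the minus strand, and its neighbour P2ry6 spans 100937630 to 100974649. The gap between them is 21918 bases, with 0 protein-coding genes annotated in it. P2rx7 (chromosome 5, 122643911 to 122691432) and P2rx4 (122707544 to 122729738) are 16111 bases apart on the plus strand, again with 0 protein-coding genes between them. P2ry12 (chromosome 3, 59216272 to 59262871) and P2ry14 (59113855 to 59153618) are not adjacent. They are separated by 62653 bases, with 2 protein-coding genes annotated between them. Both lie opposite the long gene Med12l, which had between 580 and 660 counts per library. The exons of P2ry12 share 9 bases with those of Med12l and the exons of P2ry14 share 0. Whether counting used strand is not stated in the labels, so counts in shared exon bases cannot be assigned to one gene.

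Promoter windows of 300 bases (250 before to 50 after the RefSeq start, GRCm38.p6) were found for 8 of the 10 receptors. Those of P2ry2 and P2ry12 are shown because P2ry2 carried the largest genotype difference and the windows stand at opposite ends of CpG content in the family. Capitals mark GGGCGG (the GC box) and CACGTG (an E box), searched on both strands; the motifs did not overlap.
P2ry2, chr7:101012004-101012303, minus strand: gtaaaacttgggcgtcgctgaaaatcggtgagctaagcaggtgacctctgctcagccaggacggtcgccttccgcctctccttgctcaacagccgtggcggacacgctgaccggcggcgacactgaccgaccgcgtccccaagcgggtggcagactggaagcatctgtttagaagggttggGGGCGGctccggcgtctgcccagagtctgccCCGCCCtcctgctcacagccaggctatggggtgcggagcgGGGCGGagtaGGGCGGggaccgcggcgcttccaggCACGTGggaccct
P2ry12, chr3:59262936-59263235, minus strand: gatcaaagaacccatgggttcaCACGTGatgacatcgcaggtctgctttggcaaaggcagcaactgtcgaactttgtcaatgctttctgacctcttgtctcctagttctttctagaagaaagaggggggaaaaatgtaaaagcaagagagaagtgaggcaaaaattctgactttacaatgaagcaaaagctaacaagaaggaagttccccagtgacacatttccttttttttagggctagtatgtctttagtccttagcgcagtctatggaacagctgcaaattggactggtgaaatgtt

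The P2ry2 window held 28 CpG dinucleotides, 4 GC boxes and 1 E box, and 67.3% of its bases were G or C. It lies inside the GENCODE span of P2ry2 given above, which begins further upstream. Another RefSeq start of P2ry2 gave an overlapping window with 30 CpGs, 4 GC boxes and 1 E box. The P2ry12 window held 4 CpG dinucleotides, 0 GC boxes and 1 E box at 42.3% G or C. By the first-listed start, P2ry1 (25 CpGs), Adora1 (26), Adora2b (27) and P2rx4 (18) were CpG-rich like P2ry2, P2rx7 had 8 and P2ry14 had 4. The median over 27025 first-listed promoters was 7. Among those promoters 35.91% held a GC box and 7.241% an E box. A match to these letters is a description of the sequence and not evidence of binding.

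Levels are given as CPM, the count of a gene relative to the total of its library, scaled by the trimmed mean of M values (TMM) to correct for library composition. Error bars in the plot by library are exact 95% Poisson intervals, which cover counting error only; at a count of 0 the bar ends at 3 counts. Means carry the SD between the replicates of a genotype (n = 2). After a filter on low counts 8 of the 10 receptors remained, among 14673 genes. P2ry2 and P2ry14 needed their knockout libraries to pass, P2ry12 passed through replicate 2 of each genotype, and P2ry6 and Adora2a did not pass.

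**Figure D1:**
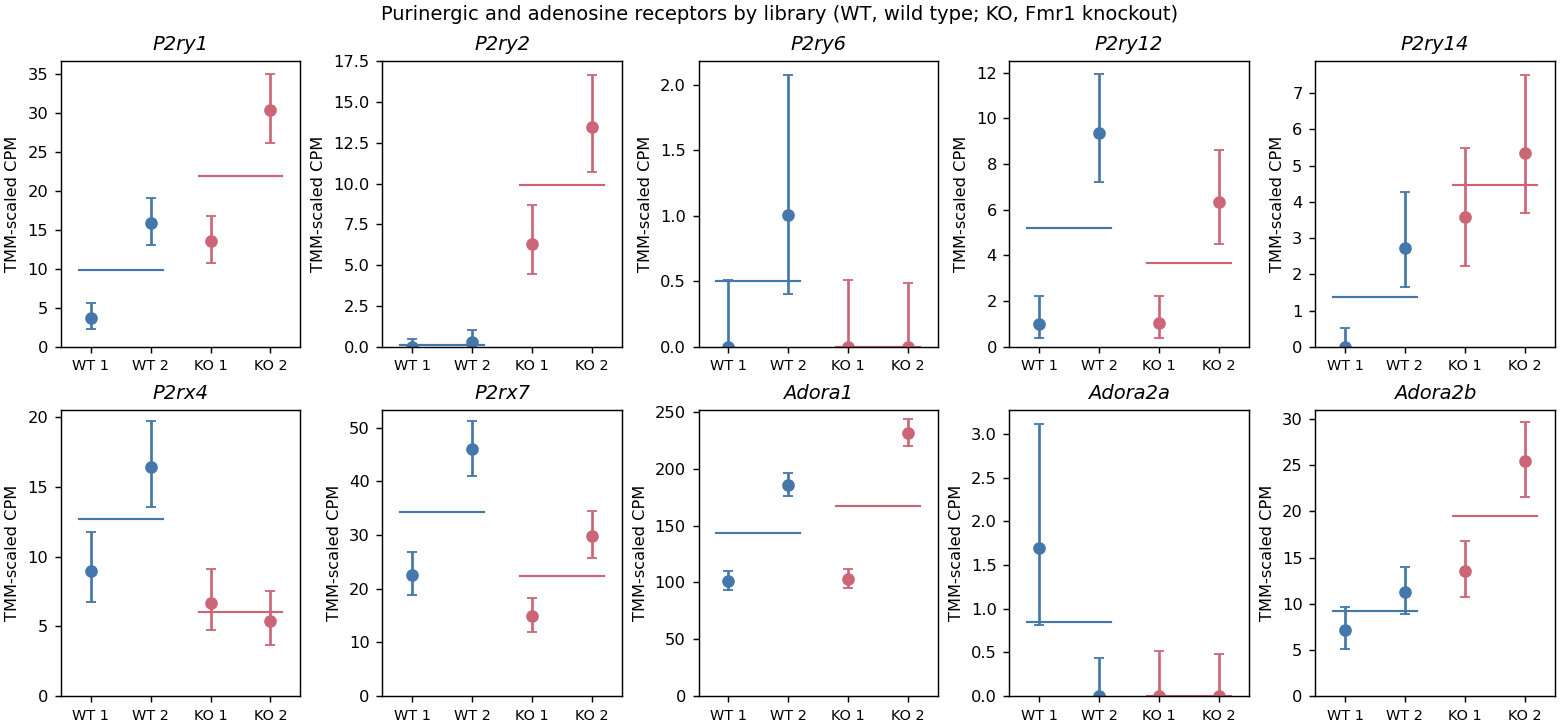
TMM-scaled CPM of the 10 receptor genes in each of the 4 libraries (WT, wild type; KO, Fmr1 knockout); points are libraries, bars are exact 95% Poisson intervals (up to 3 counts where the count is 0) and horizontal lines are genotype means. P2ry2 lies at 0 and 0.288 CPM for wild type and at 6.32 and 13.4 CPM for knockout, while Adora1 exceeds 100 CPM in all 4 libraries.

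Among the P2Y receptors that couple to Gq and raise intracellular calcium, P2ry2 showed the largest genotype difference of the family. It encodes the receptor for ATP and UTP. It had 0 and 2 counts in wild type replicates 1 and 2 and 37 and 83 counts in knockout replicates 1 and 2. These are 0 and 0.288 CPM against 6.32 and 13.4 CPM. Both knockout values were above both wild type values. In wild type replicate 1 a count of 0 allows a level of up to 0.509 CPM (3 counts). Pooled over libraries, the knockout to wild type ratio came to 64.1 (95% counting interval 17.4 to 535). That interval covers counting error only and leaves out the spread between replicates, and it is drawn from the counts that chose the family, so it is no test. The fitted log2 fold change was 5.86 (standard error 1.57). Because wild type held only 2 counts, the size of this value depends on the prior count used in the fit and on single libraries, from 5.004 without wild type replicate 1 to 8.88 without wild type replicate 2.

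P2ry1, the Gq-coupled receptor for ADP, had levels of 3.73 and 15.8 CPM in the wild type replicates and of 13.5 and 30.3 CPM in the knockout replicates. The genotypes overlapped, since knockout replicate 1 lay below wild type replicate 2. The means were 9.78 ± 8.56 and 21.9 ± 11.9 CPM (SD, n = 2 each). The log2 fold change was 1.16 (standard error 0.81). Between the replicate 1 libraries the difference was 1.77 and between the replicate 2 libraries it was 0.92 (log2 CPM with a prior count of 2). Without wild type replicate 2 the fitted value was 2.54, and without knockout replicate 2 it was 0.45. P2ry1 shares 992 exon bases with an antisense transcript, Gm37035, which had 0 to 3 counts per library.

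P2ry6, the third Gq-coupled member and the receptor for UDP, was counted in wild type replicate 2 alone, with 7 counts or 1.01 CPM. The other libraries had 0 counts, which allows up to 0.512 CPM in the shallowest of them after scaling. P2ry6 and its genomic neighbour P2ry2 thus had different count patterns over the 4 libraries.

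The Gi-coupled P2Y members, which lower cyclic AMP, were both scarce. P2ry12, the ADP receptor that is abundant in resting microglia, had levels of 1.02 and 9.36 CPM in the wild type replicates and of 1.02 and 6.32 CPM in the knockout replicates. Its level was low in both replicate 1 libraries and high in both replicate 2 libraries, and the genotypes overlapped. The log2 fold change was -0.50 (standard error 1.48). Its sign turned without wild type replicate 2 (1.82) and without knockout replicate 1 (0.27).

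P2ry14, the receptor for UDP-glucose and related UDP-sugars, had 0 and 19 counts in wild type and 21 and 33 counts in knockout libraries. At 0 and 2.74 against 3.59 and 5.35 CPM, both knockout values were above both wild type values, but the Poisson interval of wild type replicate 2 (1.65 to 4.27 CPM) met those of knockout replicate 1 (2.22 to 5.48 CPM) and of knockout replicate 2 (3.68 to 7.51 CPM). The log2 fold change was 1.68 (standard error 1.89). It was 0.70 without wild type replicate 1 and 7.74 without wild type replicate 2, where the remaining wild type library has 0 counts and the fitted value is no measure of size.

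P2rx4 and P2rx7, the P2X channels of this family, had lower means in the knockout. P2rx4, a fast ATP-gated channel, had levels of 8.99 and 16.4 CPM in the wild type replicates and of 6.66 and 5.35 CPM in the knockout replicates. Both knockout values were below both wild type values, although the Poisson interval of wild type replicate 1 (6.73 to 11.8 CPM) met those of both knockout libraries (4.74 to 9.11 and 3.68 to 7.51 CPM). The means were 12.7 ± 5.25 and 6.00 ± 0.93 CPM (SD, n = 2 each). The log2 fold change was -1.08 (standard error 0.73). The difference was -0.41 between replicate 1 libraries and -1.56 between replicate 2 libraries (log2 CPM), and the fitted value was -0.59 without wild type replicate 2.

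P2rx7, a channel that opens at high ATP and is known for inflammatory signalling, had levels of 22.5 and 45.9 CPM in the wild type replicates and of 14.9 and 29.8 CPM in the knockout replicates. The genotypes overlapped, with knockout replicate 2 above wild type replicate 1. Within each replicate number the knockout library was the lower one, with log2 CPM differences of -0.59 for replicate 1 and -0.62 for replicate 2. The fitted log2 fold change was -0.62 (standard error 0.56), and it was -0.03 without wild type replicate 2. The adjacent genes P2rx4 and P2rx7 therefore both had negative estimates, with standard errors of 0.73 and 0.56, and these differences were not tested.

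**Figure D2:**
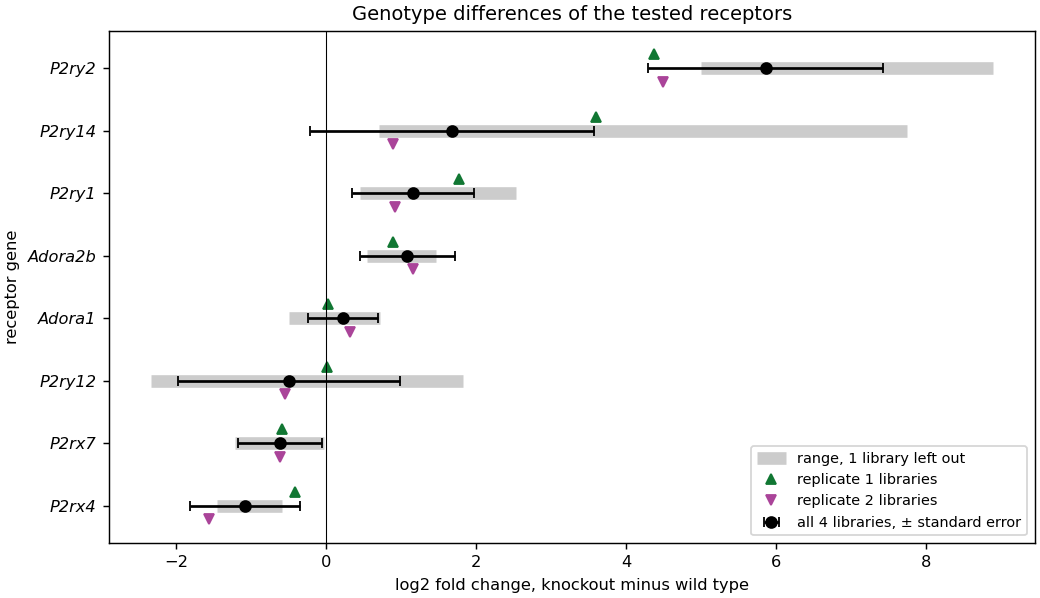
Log2 fold change, knockout minus wild type, of the 8 receptors that passed the count filter. Black points are the fit to all 4 libraries with its standard error, grey bars span the fits with 1 library left out, and triangles are the differences between libraries of the same replicate number on the log2 CPM scale with a prior count of 2. P2ry2 stays above 4 in every estimate, and the grey bars of P2ry12 and Adora1 cross 0.

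The adenosine receptors split by level. Adora1, the Gi-coupled receptor through which adenosine dampens transmitter release, had levels of 101 and 186 CPM in the wild type replicates and of 103 and 232 CPM in the knockout replicates. The libraries grouped by replicate number, not by genotype. The means were 144 ± 59.8 and 167 ± 90.9 CPM (SD, n = 2 each). The log2 fold change was 0.22 (standard error 0.47). The sign turned without wild type replicate 1 (-0.16) and without knockout replicate 2 (-0.49). The gene shares 1162 exon bases with Mybph on the other strand, which had 0 counts in every library.

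Adora2b, the low-affinity Gs-coupled receptor, had levels of 7.12 and 11.2 CPM in the wild type replicates and of 13.5 and 25.4 CPM in the knockout replicates. Both knockout values were above both wild type values, although the Poisson intervals of wild type replicate 2 (8.88 to 14.02 CPM) and knockout replicate 1 (10.7 to 16.8 CPM) met. The means were 9.18 ± 2.91 and 19.5 ± 8.45 CPM (SD, n = 2 each). The log2 fold change was 1.08 (standard error 0.63). The difference was 0.89 between replicate 1 and 1.16 between replicate 2 libraries (log2 CPM), and leaving out 1 library gave fitted values from 0.54 to 1.47. Adora2a, the Gs-coupled receptor best known from the striatum, had 10 counts in wild type replicate 1 and 0 in the other libraries, so no fold is given.

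Of the 8 receptors that passed the filter, 5 had estimates above 0 and 3 below 0. Both knockout values were above both wild type values for P2ry2, P2ry14 and Adora2b, where 11.8% of all tested genes showed that order, and below them for P2rx4, where 13.7% of all tested genes did. Since P2ry2 was chosen for its difference and P2ry2 and P2ry14 needed their knockout libraries to pass the filter, nothing is read from these counts. The median log2 fold change was 0.65 over these 8 genes, P2ry2 and P2ry14 included, and 0.02 over all tested genes. The same choice and filter enter the median of the 8, so nothing is read from that difference either.

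Levels between genes were compared per length, as TPM, the count per base of gene length scaled to the same total in each library, from the deposited counts and lengths. Adora1 led with a mean of 71.0 TPM and a range of 49.8 to 89.3 TPM over the 4 libraries, above the range of every other receptor. Adora2b followed with 20.1 TPM (13.5 to 30.7), then P2rx7 with 12.8 TPM (6.94 to 20.0) and P2ry1 with 9.29 TPM (3.05 to 15.7). Mean levels were 4.404 TPM for P2ry12, 3.73 for P2rx4 and 3.08 for P2ry2. P2ry14 (0.66 TPM), Adora2a (0.49 TPM) and P2ry6 (0.23 TPM) came last. Below Adora1 the ranges of neighbours in this order all met. Adora2b exceeded P2rx7 in 3 of 4 libraries, and P2ry1 exceeded P2ry12 in 4 of 4. Of all genes with any count, 93.1% had a mean TPM at or below that of Adora1, 69.0% at or below that of Adora2b and 34.9% at or below that of P2ry2.

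**Figure D3:**
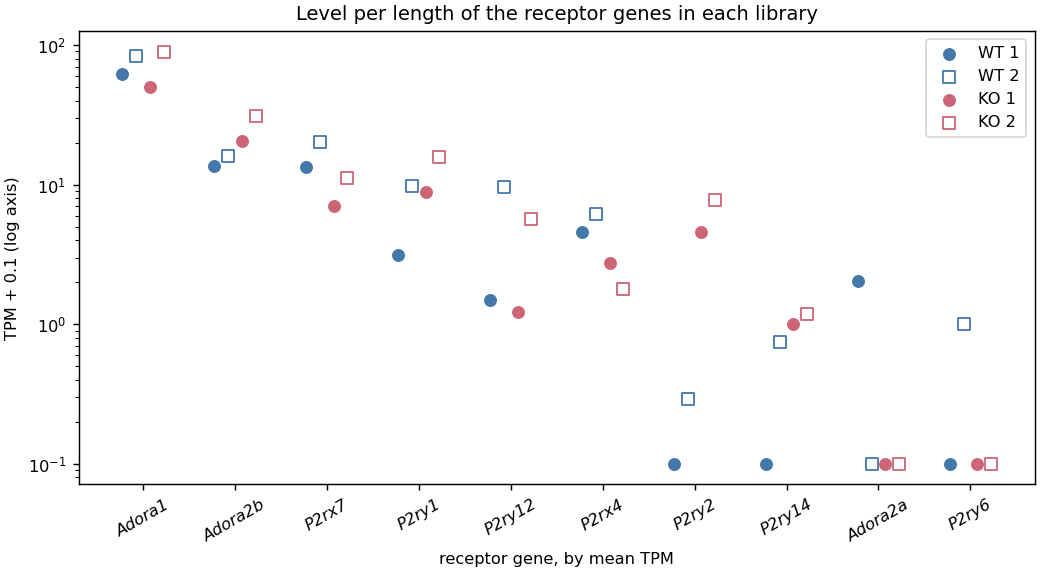
Level of each receptor gene per length, in TPM plus 0.1 on a log axis, with genes ordered by mean TPM; circles are replicate 1 and open squares replicate 2 libraries, blue for wild type and red for knockout. Adora1 lies at 49.8 TPM or more in all libraries and overlaps with no other receptor.

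Much of the spread in these genes lay between libraries of one genotype. P2ry12 passed the count filter only through its replicate 2 libraries, so its order was fixed by the filter. Of the other 7 receptors that passed, 6 were higher in replicate 2 than in replicate 1 in both genotypes, as were 32.3% of all tested genes; the difference between these shares was not tested. P2rx4 in the knockout was the exception, and for P2ry2 in wild type the difference was 2 counts against 0. P2ry12 was 9.20 times higher in wild type replicate 2 than in wild type replicate 1 and 6.17 times higher in knockout replicate 2 than in knockout replicate 1. The ratios were 2.04 and 2.01 for P2rx7, 1.83 and 2.25 for Adora1 and 1.58 and 1.89 for Adora2b.

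Marker transcripts of several cell types differed between the same libraries. Dcx, the gene of the reporter named in the series design, had 166 to 456 CPM, and markers of astrocytes summed to between 7068 and 10433 CPM, so the libraries held glial transcripts beside neuronal ones. The 5 markers of oligodendrocyte precursors summed to 329 and 2531 CPM in the wild type replicates and 416 and 3159 CPM in the knockout replicates. The 8 markers of neuroblasts and immature neurons went the other way by replicate number, at 2618 and 1275 CPM for the wild type replicates and 3001 and 1372 CPM for the knockout replicates. Summed markers of mature granule neurons were higher in replicate 2, at 1580 and 2854 CPM for wild type and 1516 and 3960 CPM for knockout. Those of oligodendrocytes were higher there too, at 1819 and 10416 CPM for wild type and 3801 and 9508 CPM for knockout. The 16 microglial markers summed to 54.8 and 152 CPM in the wild type replicates and 85.9 and 137 CPM in the knockout replicates. Single microglial markers ran in different directions. Cx3cr1, a defining microglial gene, had 1.86 and 10.8 CPM in the wild type and 1.37 and 1.13 CPM in the knockout replicates. From knockout replicate 1 to 2 the microglial sum rose, as did Csf1r (10.2 to 18.1 CPM), while Tmem119 fell (3.42 to 0 CPM). C1qb had 2 and 15 counts in wild type and 72 and 98 counts in knockout libraries. C1qa had 38 and 15 counts in wild type and 2 and 21 counts in knockout libraries. The 8 endothelial markers summed to 22.9 and 80.4 CPM in the wild type replicates and 34.3 and 54.8 CPM in the knockout replicates, and single markers ran in different directions. In the same order Cldn5 had 1.53, 6.62, 0 and 0.162 CPM, Kdr had 0.848, 5.90, 14.9 and 12.2 CPM, and Pecam1 had 0, 2.02, 2.56 and 8.43 CPM. Of 5 leukocyte markers, 4 had 0 counts in all libraries. The 5 pericyte and smooth muscle markers summed to 97.5 and 109 CPM in the wild type replicates and 78.4 and 33.7 CPM in the knockout replicates. The part of cell composition in the receptor values was not tested. In bulk libraries fewer cells of a type and less RNA per cell cannot be told apart.

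**Figure D4:**
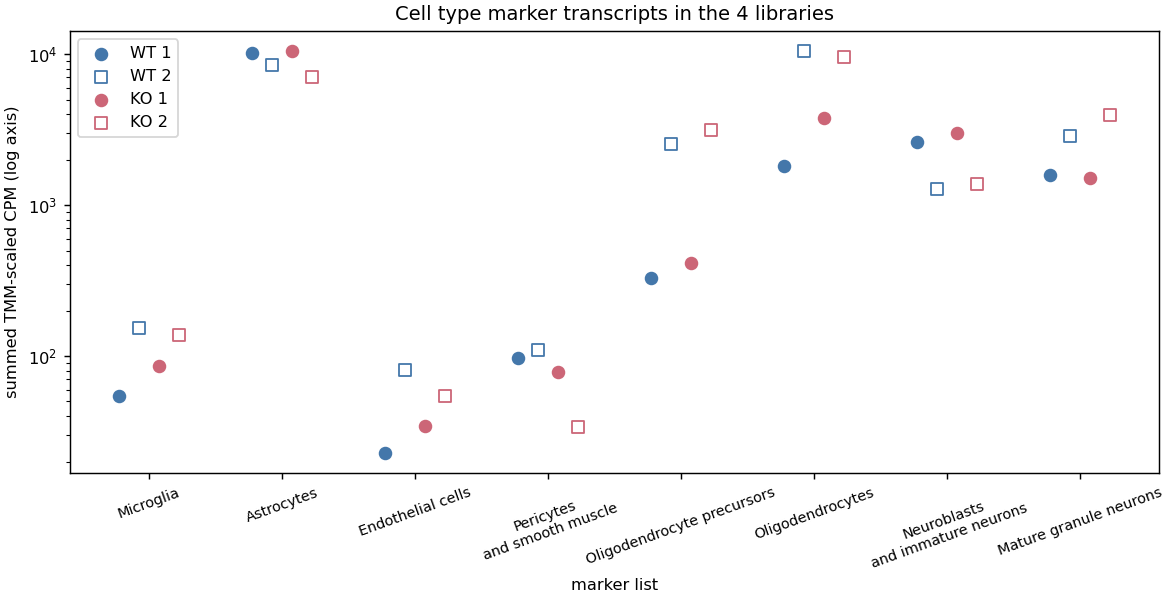
Summed TMM-scaled CPM (log axis) of 8 lists of cell type markers in each library; circles are replicate 1 and open squares replicate 2, blue for wild type and red for knockout. Oligodendrocyte precursor markers are 7.70 and 7.60 times higher in replicate 2 than in replicate 1 of wild type and knockout, while microglial and endothelial sums reach at most 152 CPM.

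The count pattern of P2ry2 was set beside that of other genes, with limits taken from its own values (at most 2 counts in the low libraries together and at least 37 in each high library). Because the limits are its own counts, that P2ry2 met them with wild type low and knockout high is built in. No other tested gene met them in that direction, but this depends on where the limits lie and is not read as a result. Veph1 and Hist1h2ah, with values in the next paragraph, missed only the limit of 37. In the opposite direction 2 genes met them, of which Nqo1, a quinone reductase, had 40 and 39 counts in wild type and 2 and 0 in knockout libraries. The other, the clone gene D630030B08Rik, had 44 and 44 against 1 and 1 counts. Between the replicates of one genotype such gaps were more frequent for single libraries. Among genes with at least 37 counts in the higher library, 158 of 11395 had at most 2 counts in knockout replicate 2 against knockout replicate 1, and 101 of 11284 the reverse. In wild type 74 of 11751 were that low in replicate 1 and 24 of 11465 in replicate 2. The single-library gaps and the gap between both libraries of each genotype are different events and are not compared by a test.

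The tested genes whose profile over the 4 libraries was nearest to P2ry2 were Veph1 and Hist1h2ah, at Euclidean distances of 0.93 and 0.95 in centred log2 CPM. Veph1 had 0 and 1 counts in wild type and 23 and 33 counts in knockout libraries, and Hist1h2ah, a histone gene with close copies that can share reads, had 0 and 1 against 29 and 33 counts. The next were the microRNA loci Mirlet7c-2 and Mir344-2 and the noncoding gene Fcnaos, at distances of 1.02 to 1.11. For P2ry14 they were Tmem74, Clmp, E2f2, Crtap and Npas1, at 0.37 to 0.57. Over 4 libraries many low-count genes share a profile, so this is a description only.

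The rest of purinergic signalling was read from the same fit, as a list of 51 genes of which 50 were in the table and 37 were tested. None was called in either direction at an adjusted p under 0.05 (edgeR, quasi-likelihood, Benjamini-Hochberg), where the share of all tested genes called was 0% in each direction. With an unadjusted p under 0.05 as the limit, 0 of the 37 passed by edgeR, where 1.05% of all tested genes did, so a count of 0 among 37 says little about them. DESeq2 and limma voom called 0 as well. Estimates were above 0 for 18 and below 0 for 19, with a median log2 fold change of -0.01.

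Of the other receptors 5 of 9 in the table were tested, with 1 estimate above 0 and 4 below 0. P2rx6, a P2X subunit, had 11.2 ± 10.3 CPM for wild type and 7.68 ± 10.6 CPM for knockout, and P2rx5 had 9.99 ± 5.02 and 8.05 ± 0.99 CPM (SD, n = 2 each). P2rx2 had 0.93 ± 1.32 and 4.53 ± 6.40 CPM (SD, n = 2 each), with counts in the replicate 1 libraries alone. Each of these differences was smaller than the SD in at least 1 genotype. P2rx2 was named after its values were seen.

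Ectonucleotidases had 2 estimates above 0 and 5 below 0. Entpd2, which favours ATP as a substrate, had 14.9 ± 5.12 and 13.1 ± 13.1 CPM, and Entpd1, the enzyme also known as CD39, had 13.9 ± 15.1 and 10.8 ± 0.77 CPM (SD, n = 2 each). Alpl, an alkaline phosphatase, had levels of 12.04 and 10.5 CPM in the wild type replicates and of 1.88 and 7.29 CPM in the knockout replicates. Its log2 fold change was -1.29 (standard error 0.91; unadjusted p 0.20, adjusted p 0.9999, edgeR).

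Genes that clear or carry adenosine had 4 estimates above 0 and 2 below 0. Adk, the kinase that removes adenosine by making AMP, had the smallest p of the 37 genes. It had levels of 39.8 and 59.9 CPM in the wild type replicates and of 32.8 and 32.1 CPM in the knockout replicates, a log2 fold change of -0.62 (standard error 0.39). Both knockout values were below both wild type values (unadjusted p 0.152, adjusted p 0.9999, edgeR). Slc29a3, a nucleoside transporter, had 42.2 ± 6.26 and 45.2 ± 16.1 CPM (SD, n = 2 each).

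Nucleotide release genes had 2 estimates above 0 and 4 below 0. The connexins Gja1 and Gjb6, which also mark astrocytes, had 439 ± 78.3 and 330 ± 148 CPM and 81.2 ± 6.71 and 59.6 ± 32.2 CPM in wild type and knockout (SD, n = 2 each). Gja1 stands in the astrocyte list too. Among 13 tested genes of G protein coupling, 9 had estimates above 0, and Plcb4, a phospholipase downstream of Gq, had a log2 fold change of -0.66 (standard error 0.50) (unadjusted p 0.229, adjusted p 0.9999, edgeR).

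**Figure D5:**
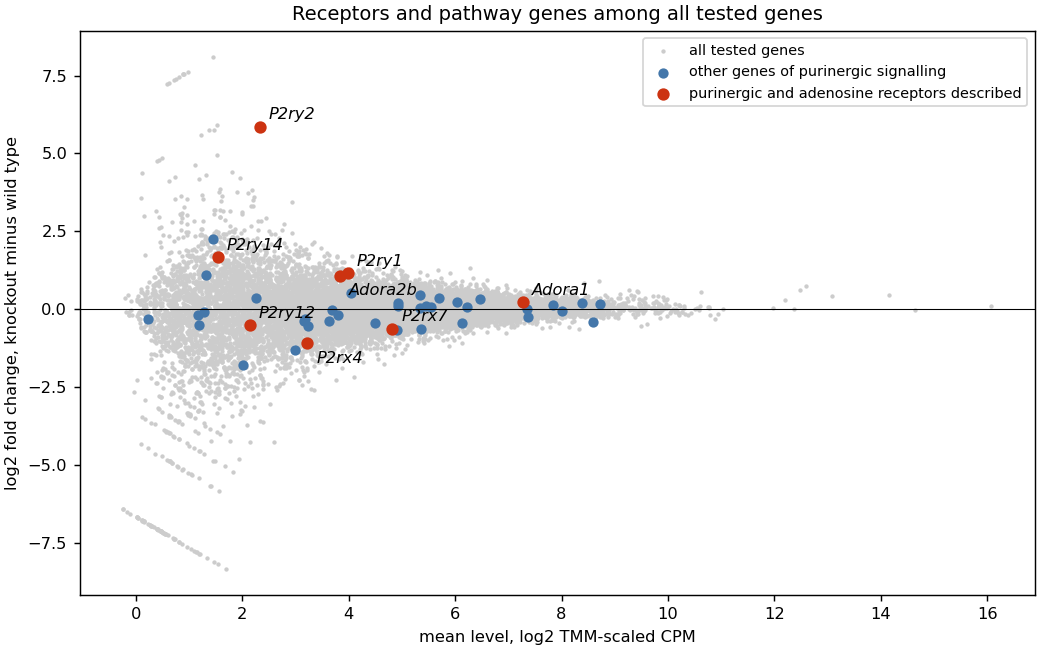
Log2 fold change, knockout minus wild type, against mean level in log2 TMM-scaled CPM for 14673 tested genes (grey), with 37 other genes of purinergic signalling (blue) and 8 receptors (red). P2ry2 at 5.86 lies outside the bulk of genes of its level, but its counts chose the family, so its place is not read as a result. The other receptors lie inside the bulk, and genes with few counts spread widely in both directions.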

How the data were processed

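Per the labels' protocols, poly(A)-selected, strand-specific libraries were made with a kit for very low RNA input and sequenced as paired reads. The authors deposited raw counts per gene and gene lengths in bases. The submitters' processing notes name GRCm38 and STAR 2.5.3a. Neither the labels nor the file header name the annotation release, the counting program or its strand setting. GENCODE M21, chosen here, held 99.56% of the gene IDs, and where IDs with version matched, 100% of deposited lengths equalled merged exon lengths.

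Libraries held 5478224 to 7213759 counts. Replicates were not one library deposited again (chi-square per degree of freedom 38.2 for wild type and 54.2 for knockout). Counts were filtered with filterByExpr (minimum count 10), scaled by TMM and fitted with edgeR 4.0.16 (R 4.3.3, robust quasi-likelihood F-test, genotype as the only term), adjusted over 14673 genes. Standard errors were taken as |log2 fold change| / √F. No label says that replicates are separate animals, so p-values reflect only how these libraries vary, which may be technical. The fit was run on simulated data, at a spread below that of these libraries and also at a spread near theirs. Recovery of planted changes was required only at the lower spread. Recovery at their own spread is not given here, so detection at that spread is not shown. Intervals and floors cover counting error only, since reads were not counted by molecular identifier.

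Receptors and lists were chosen with earlier results of these data known. Named are all 10 receptors and, of the pathway list, the 2 most abundant tested genes of each role and the 3 with the smallest p; profiles nearest to the 2 receptors with the largest fitted change are named without clone symbols. Marker lists are given as sums, with the first-listed gene of 3 lists. Nqo1, D630030B08Rik, P2rx2, Kdr, Pecam1, Csf1r, Tmem119, C1qa and C1qb were named after their values were seen. Alternatives covered scaling, filters, DESeq2 1.42.0, limma 3.58.1 voom, non-robust estimation, a replicate block, summed rows, an adjusted p under 0.1 and leaving out each library.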

Additional observations from a re-analysis of the deposited data

How the results depend on the processing

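Under the alternatives without a library left out, the 8 tested receptors kept the sign of their log2 fold change. Ranges there were 5.75 to 6.10 for P2ry2, 1.68 to 3.04 for P2ry14, 1.11 to 1.36 for P2ry1 and -1.11 to -1.03 for P2rx4. Summed rows could not change a value, since each symbol had 1 row. Non-robust estimation left the fold changes as they were, so these alternatives say nothing about the sign. Leaving out 1 library turned the sign of P2ry12 (range -2.33 to 1.82) and of Adora1 (-0.49 to 0.71) and of no other tested receptor; the cause was not tested. Each fit without a library leaves 1 library in a genotype, which is assumed to vary like the others. With all libraries edgeR called 0 genes (unadjusted p under 0.05 for 69 higher and 85 lower), and without any 1 library it again called 0, in the wider pathway too. With the replicate block 10 of 14673 tested genes were called. Of the 37 pathway genes 0 were called, which says little when so few genes were called at all. Under the block 2 of these 37 had an unadjusted p under 0.05 (edgeR), beside 5.30% of all tested genes. The log2 fold changes under the block, given without a test, were 6.10 for P2ry2 and -1.03 for P2rx4. Deviations of same-numbered libraries correlated across genes (r = 0.364, genes are not independent replicates), but the labels do not say what the numbers share. At this depth receptors under about 0.5 CPM could not be told from absent.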
